A study of Mus musculus with 12 samples.

Results

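Dermal fibroblasts that carry Dlk1 at the surface were compared according to whether they also carry Sca1. The comparison takes the 3 arrays whose label names Dlk1+ Sca1+ fibroblasts, which the labels call pre-adipogenic, and the 3 arrays labelled as Dlk1+ reticular fibroblasts. These are 6 of the 12 arrays of the study, chosen by label and by no measured value. Both populations were sorted from the same 3 animals, female littermates aged 2 days, so each Dlk1+ Sca1+ array has a reticular partner from its own animal. All cells were positive for Pdgfra and CD34 and negative for CD45, CD117, CD31 and EpCam. Reticular cells were further sorted as CD26- Dlk1+ Sca1-, and Dlk1+ Sca1+ cells as CD26- Dlk1+ Sca1+. The skin was freed of the layer under the dermis before digestion, and how fully this removed the fat layer was not measured. RNA from 4500 cells per sample was amplified over 21 cycles before hybridisation, and 8 µg of cDNA were labelled. The remaining 6 arrays hold CD26+ papillary cells (CD26+ Dlk1- Sca1-) and Dlk1- Sca1+ cells (CD26- Dlk1- Sca1+) of the same animals.

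Sca1 is a small surface protein of the Ly6 family that is used to mark progenitor cells in many mouse tissues, and in the skin it marks fibroblasts of the lower dermis that can become fat cells. Dlk1 is a membrane protein with EGF-like repeats that restrains the conversion of preadipocytes into fat cells. Fibroblasts of the lower dermal lineage give rise both to the fibre-forming cells of the reticular dermis and to the adipocytes beneath it, while a separate upper lineage forms the papillary dermis and the hair follicle's dermal papilla. Both populations compared here carry Dlk1, so the contrast between them is one of Sca1 within Dlk1+ cells.

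The transcripts of the sorting markers were compared first. Dlk1 was at 12.96, 13.04 and 12.90 on the log2 scale in the reticular arrays of animals 1 to 3, and at 12.87, 12.90 and 12.82 in their Dlk1+ Sca1+ arrays. The difference of -0.10 did not pass (adjusted p = 0.529), with Dlk1 close to the highest value of the 6 arrays, 13.22, where array signal can level off. The Sca1 transcript was not analysed here. Cd34 was 0.34 higher in Dlk1+ Sca1+ cells (adjusted p = 0.0421), a call that was lost in 9 of 17 other fits and reached an adjusted p of 0.243 without animal 3. Pdgfra (0.03), Dpp4, which encodes CD26 (-0.04), Ptprc (-0.01), Kit (0.07) and Epcam (0.34) did not pass. Pecam1, the transcript of CD31, did not pass either, but animal 2 had 8.74 in Dlk1+ Sca1+ cells against 7.48 to 7.94 in the other 5 arrays. Of 11 genes of dermal fibroblasts 3 were higher (27.3% against 6.14% over all genes), 2 lower (18.2% against 6.35%) and 6 did not pass. The higher genes were Thy1 (0.87, adjusted p = 1.3e-05), Cd34 and Twist2 (0.22), and the lower genes Pdgfrb (-0.54, adjusted p = 0.00148) and Lum, the gene of the matrix proteoglycan lumican (-0.23, adjusted p = 0.0466). Twist2 and Lum each lost the call in 12 of 17 other fits, and 1 to 2 genes in each direction were called when an animal or an array was left out. Among the 6 that did not pass, Col1a1 (13.13 in reticular and 13.14 in Dlk1+ Sca1+ cells), Col3a1 (12.93 and 12.92) and Dcn (12.76 and 12.78) were near the top of the scale in both populations.

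Arrays correlated at 0.993 to 0.995 within the reticular population, at 0.992 to 0.994 within Dlk1+ Sca1+ cells and at 0.984 to 0.987 between them, across genes. Levels are log2 RMA values, which are comparable for 1 gene between arrays and not between genes. Calls rest on limma's moderated test with the animal as a block, at a Benjamini-Hochberg adjusted p below 0.05. Named calls also held in each of 17 other fits that included the gene, 9 of which left out an animal or 1 array, except where a sentence says otherwise. With 3 arrays per population, their number limits the precision, and the median standard error (SE) of a difference was 0.08. These are bulk samples, in which a lower share of cells that express a gene and less RNA of it per cell cannot be told apart.

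Of 17097 genes, 2135 were called, or 12.5%. In Dlk1+ Sca1+ cells 1050 genes were higher (6.14%) and 1085 were lower (6.35%). The direction was the same in 3 of 3 animals for 1049 of the higher and 1084 of the lower genes. All 3 values of one population lay above the 3 of the other for 981 and 1001 of them. Both counts cover called genes only, and the call itself favours agreement between animals, so they are no separate support. Most differences were small, with a median size of 0.42 for higher and 0.47 for lower genes, while 94 higher genes (0.55%) and 143 lower genes (0.836%) differed by at least 1 on the log2 scale and 10 and 18 by at least 2. The even split depended on scaling. With each array centred on its median, 1381 genes were higher and 889 lower, so 60.8% of the calls were higher in place of 49.2%, and the median over all genes moved from -0.00667 to 0.0333. The counts were also sensitive to single animals and arrays. Without animals 1, 2 and 3 there were 615, 520 and 362 higher and 749, 439 and 472 lower genes. Without the Dlk1+ Sca1+ arrays of animals 1, 2 and 3 in turn there were 680, 757 and 582 higher and 746, 702 and 654 lower genes, and without the reticular arrays 698, 898 and 652 higher and 774, 738 and 797 lower genes. Without the animal as a block the counts were 694 and 747.

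**Figure D1:**
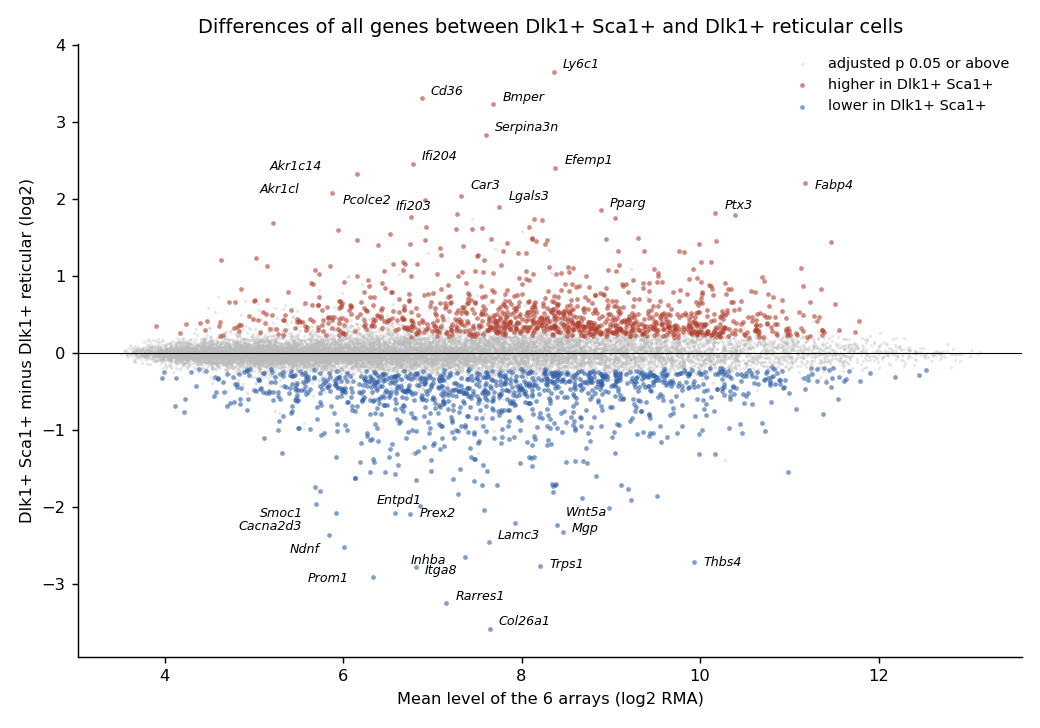
Difference between Dlk1+ Sca1+ and Dlk1+ reticular cells (log2, vertical axis) against the mean level of the 6 arrays (log2 RMA, horizontal axis), 1 point per gene. Red points are the 1050 genes called higher and blue points the 1085 called lower in Dlk1+ Sca1+ cells, grey points did not pass, and the 15 named genes per direction with the largest differences run from Ly6c1 at 3.65 to Col26a1 at -3.59.

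Ly6c1 had the largest difference of the genes named. It encodes a surface protein of the Ly6 family, to which Sca1 belongs. Ly6c1 was at 6.63, 6.67 and 6.30 in the reticular arrays of animals 1 to 3 and at 10.25, 10.13 and 10.17 in the Dlk1+ Sca1+ arrays. The populations did not overlap, which was required of the 15 leading genes per direction. The gap was far wider than the spread within either. The difference was 3.65 ± 0.12 (SE), 12.6-fold (adjusted p = 2.28e-07). Of 12 Ly6 genes measured, 3 were higher and 9 did not pass, while 6.14% of all genes were higher. Ly6e (1.17, adjusted p = 1.43e-05) and Ly6i (1.02, adjusted p = 0.000909), singled out after their values were seen, were the other 2 higher genes. The family was also counted after values were seen, so its count is no independent evidence of a direction. Members of this family are similar in sequence, and probes may not fully separate Ly6c1 and Ly6i from their neighbours.

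Over all 12 arrays, the genes whose levels were most like those of Ly6c1 were Ctsh (Pearson r = 0.974), which encodes the lysosomal protease cathepsin H, Anxa11 (r = 0.957), an annexin, and St3gal1 (r = 0.955), a sialyltransferase. The 12 arrays share 3 animals and 4 populations, so these values describe the pattern only. Ctsh was higher in Dlk1+ Sca1+ than in reticular cells by 1.45, Anxa11 by 0.48 and St3gal1 by 0.80. In each of the 3 the mean of the Dlk1- Sca1+ cells was near that of the Dlk1+ Sca1+ cells, with 10.91 and 10.90 for Ctsh.

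Genes for the uptake and handling of fatty acids were next. Cd36 encodes a scavenger receptor that carries long-chain fatty acids into the cell. It was at 5.26, 5.35 and 5.08 in reticular cells and at 8.66, 8.95 and 8.00 in Dlk1+ Sca1+ cells, in the order of animals 1 to 3 that is kept below. The lowest Dlk1+ Sca1+ array, of animal 3, was still well above each reticular array. The difference was 3.31 ± 0.14, 9.89-fold (adjusted p = 8.75e-07). Fabp4, the fatty-acid-binding protein of adipocytes, was already high in reticular cells, at 10.12, 10.27 and 9.85, and was at 12.27, 12.36 and 12.21 in Dlk1+ Sca1+ cells. It was higher by 2.20 ± 0.31 (adjusted p = 0.00107). Car3, a carbonic anhydrase abundant in fat cells, was at 6.32, 6.55 and 6.05 and at 8.80, 7.81 and 8.43, with the smallest gap in animal 2 (2.04 ± 0.22, adjusted p = 0.000212). Lpl, the lipase that frees fatty acids from circulating lipoproteins, was higher by 1.43 ± 0.10 (adjusted p = 1.12e-05) and Mgll, monoglyceride lipase, by 1.26 ± 0.10 (adjusted p = 3.43e-05).

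These 5 were among 7 of 29 measured genes of lipid uptake, storage and adipocyte products that were higher, or 24.1% against 6.14% over all genes, while none of the 29 was lower. The other 22 did not pass, and the list's median difference was 0.06 against -0.00667 over all genes. Cd36 is on the list and was already known to differ when the list was written, so its count is no independent evidence of a direction. The hormones of fat cells on the list did not pass. Adipoq, the gene of adiponectin, had a mean of 4.57 in reticular and 4.66 in Dlk1+ Sca1+ cells (adjusted p = 0.779), near the low end of the scale, and Lep, the gene of leptin, a mean of 4.53 and 4.43 (adjusted p = 0.56). Fasn (-0.05) and Scd1 (-0.30), which act in fatty acid synthesis, did not pass. Cd36 and Fabp4 are also genes of capillary endothelium. Of 18 endothelial markers 1 was higher (5.56% against 6.14% over all genes) and 3 were lower (16.7% against 6.35%). The higher count was 2 without animal 1 or its Dlk1+ Sca1+ array, and the lower count 1 without animal 2, the Dlk1+ Sca1+ array of animal 1 or any 1 reticular array. Their summed level on the linear scale was 2358 to 2497 in reticular and 1903 to 2672 in Dlk1+ Sca1+ arrays, so the ranges overlapped. Within Dlk1+ Sca1+ cells the sum and Pecam1 were highest in animal 2, where Cd36 was also highest, and the part of these markers in the result was not tested. Cdh5, a defining endothelial gene, was at 6.56 and 6.62 (adjusted p = 0.958).

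Pparg, the nuclear receptor that drives adipocyte differentiation, was at 7.78, 8.09 and 8.03 in reticular and at 9.77, 9.74 and 9.94 in Dlk1+ Sca1+ cells. Its values were tight in both populations, and the difference was 1.85 ± 0.09, 3.6-fold (adjusted p = 1.35e-06). Cebpa, its partner in that programme, was higher by 0.64 ± 0.07 (adjusted p = 0.000153), from 9.76, 9.80 and 9.53 to 10.24, 10.53 and 10.25. The earlier C/EBP factors Cebpb (0.07, adjusted p = 0.717) and Cebpd (0.28, adjusted p = 0.186) and the preadipocyte zinc finger gene Zfp423 (0.03, adjusted p = 0.926) did not pass. Klf2 (0.45), Klf5 (0.38) and the glucocorticoid receptor gene Nr3c1 (0.33) were called higher, but lost the call in 8, 10 and 7 of the 17 other fits. Nr2f2, the orphan receptor COUP-TFII, was lower at -1.40 ± 0.10 (adjusted p = 9.82e-06), as were Ebf3 (-0.84) and Tshz2 (-0.75), and Zfp467 (-0.36) was called lower but lost the call in 13 fits.

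Of the 28 measured genes on this list of adipogenic factors and regulators, 5 were higher (17.9%) and 4 lower (14.3%), with a median of 0.05. The shares over all genes were 6.14% and 6.35%. The members moved both ways and the count of higher genes was 2 without any 1 animal. It was also 2 without the Dlk1+ Sca1+ array of animal 1 or 3 or the reticular array of animal 3, and 3 without the reticular array of animal 1 or the Dlk1+ Sca1+ array of animal 2. Surface genes used to sort fat progenitors were mixed as well, with 4 of 14 higher (28.6%) and 2 lower (14.3%). Thy1 was higher by 0.87 ± 0.06 (adjusted p = 1.3e-05), Cd55, which shields cells from complement, by 0.79 and the growth factor gene Fgf10 by 0.65, with Cd34 as the other. Cd24a, a surface glycoprotein of early fat progenitors, was at 11.62, 11.76 and 11.92 in reticular cells and at 10.27, 10.34 and 10.03 in Dlk1+ Sca1+ cells, a difference of -1.55 ± 0.22 (adjusted p = 0.00119). Pdgfrb was lower at -0.54.

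**Figure D2:**
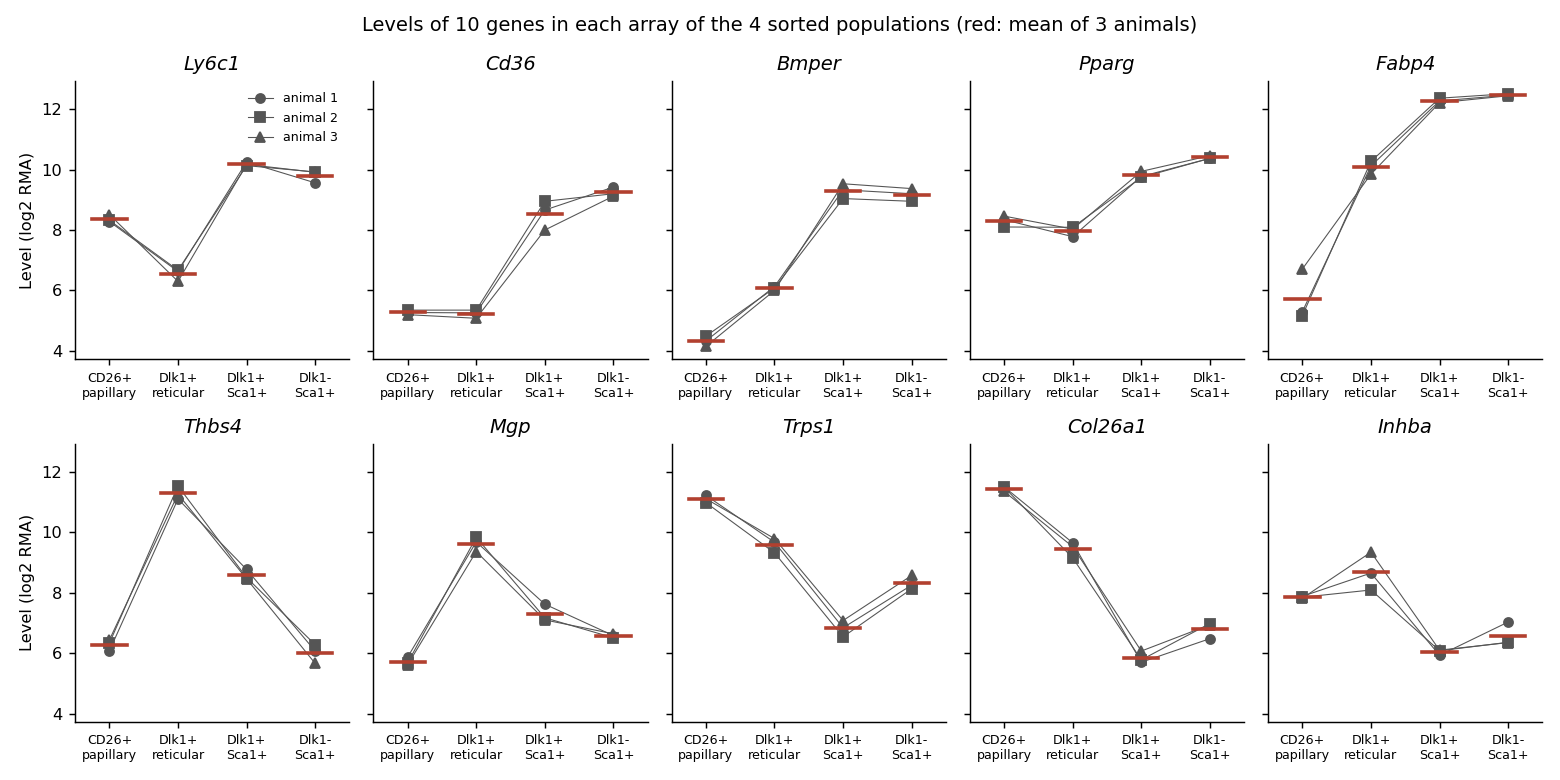
Levels of 10 genes (log2 RMA, vertical axis) in each of the 12 arrays, by population, with 1 symbol and line per animal and a red bar at the mean of 3 animals. The upper row holds genes higher in Dlk1+ Sca1+ than in Dlk1+ reticular cells, such as Cd36 with means of 8.54 and 5.23, and the lower row holds genes lower there, such as Thbs4 with means of 8.58 and 11.3.

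A list of genes of fascia and adventitia fibroblasts, which lie in the loose connective tissue around organs and vessels, held several of the genes with the largest differences. Bmper, a secreted protein that binds BMPs, was at 6.13, 6.08 and 6.0 in reticular and at 9.33, 9.04 and 9.53 in Dlk1+ Sca1+ cells. The reticular values lay within 0.13 of each other and each animal showed a gap of a similar size. The difference was 3.23 ± 0.14, 9.38-fold (adjusted p = 8.46e-07). Efemp1, a fibulin of the elastic matrix, was at 7.33, 7.03 and 7.17 and at 9.47, 9.46 and 9.81 (2.40 ± 0.11, adjusted p = 1.32e-06). Pcolce2, an enhancer of procollagen cleavage, was higher by 1.98 ± 0.18 (adjusted p = 6.25e-05) with its smallest Dlk1+ Sca1+ value, 7.24, in animal 2. Gfpt2, an enzyme of the hexosamine pathway, was higher by 1.18.

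The median of the 17 measured genes on this list was 0.61. Of them 11 were higher (64.7% against 6.14% over all genes) and 1 was lower (5.88% against 6.35%). Defining genes of the fascia fibroblast were not all among them, since Pi16 (-0.05, adjusted p = 0.795) and Dpt, the gene of dermatopontin, which was at 12.16 and 12.17, did not pass. The lower gene was Plac8 (-0.83, adjusted p = 0.0435), which lost the call in 9 of 17 fits, among them those without animal 2, animal 3, or the Dlk1+ Sca1+ or reticular array of either, so that 0 were lower there. Ly6c1 and Bmper are both on the list and were among the genes already known to differ when it was written, so its count is no independent evidence of a direction.

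Serpina3n, a secreted inhibitor of serine proteases, was at 6.02, 6.44 and 6.08 in reticular cells and at 9.01, 9.03 and 9.0 in Dlk1+ Sca1+ cells, the latter almost equal. It was higher by 2.83 ± 0.14 (adjusted p = 1.35e-06). Ptx3, a secreted pentraxin of innate defence and matrix assembly, was at 9.13, 9.39 and 9.27 and at 10.98, 11.10 and 11.16 (1.82 ± 0.07, adjusted p = 8.37e-07). Lgals3, which encodes the lectin galectin-3, was at 6.89, 6.41 and 7.12 and at 8.81, 8.79 and 8.49 (1.89 ± 0.15, adjusted p = 3.22e-05). None of these 3 overlapped between populations, as their choice among the leading genes required.

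The genes lower in Dlk1+ Sca1+ cells were led by matrix and membrane genes. Col26a1, a short collagen, was at 9.65, 9.15 and 9.52 in reticular and at 5.70, 5.78 and 6.07 in Dlk1+ Sca1+ cells (-3.59 ± 0.16, 12-fold lower, adjusted p = 8.75e-07). Rarres1, a retinoic-acid-responsive gene, was at 8.87, 8.43 and 9.06 and at 5.33, 5.83 and 5.43 (-3.26 ± 0.16, adjusted p = 1.35e-06). Itga8, an integrin subunit, was at 8.28, 7.76 and 8.58 and at 5.48, 5.22 and 5.56 (-2.79 ± 0.14, adjusted p = 1.35e-06). In each of these the lowest reticular array was that of animal 2, yet it lay over 2 log2 units above the highest Dlk1+ Sca1+ array for Col26a1, Rarres1 and Itga8. Lamc3, a laminin chain, was lower at -2.46 ± 0.14, Ndnf, a secreted fibronectin-type protein, at -2.53 ± 0.23, and the calcium channel subunit gene Cacna2d3 at -2.37 ± 0.28, from 7.43, 6.13 and 7.52 to 4.63, 4.64 and 4.69. Prex2, an activator of Rac, was lower at -2.09 ± 0.19.

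**Figure D3:**
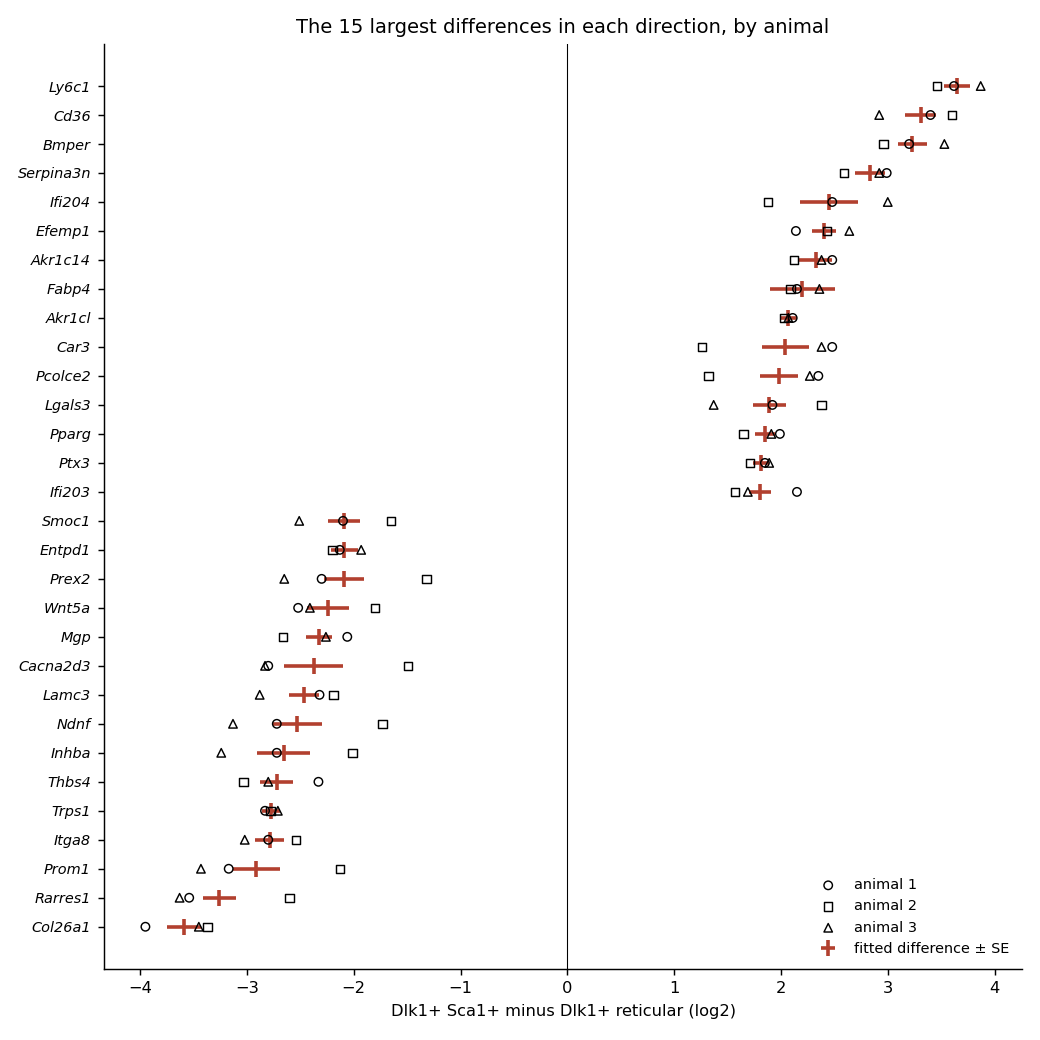
Differences between Dlk1+ Sca1+ and Dlk1+ reticular cells (log2, horizontal axis) for the 15 named genes with the largest difference in each direction, with 1 open symbol per animal and a red mark at the fitted difference with its SE. All symbols of a gene lie on one side of 0, which the choice of genes without overlap ensures. Animal 2 has the smallest difference for several genes, as for Cacna2d3 and Prex2.

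Several genes on the list of reticular dermis matrix were among the lower genes. Thbs4, a matrix thrombospondin of tendon and fibrous tissue, was at 11.10, 11.53 and 11.26 in reticular cells and at 8.77, 8.50 and 8.46 in Dlk1+ Sca1+ cells. The populations were far apart in every animal, and the difference was -2.72 ± 0.15, 6.59-fold lower (adjusted p = 3.1e-06). Mgp, an inhibitor of calcification, was at 9.68, 9.83 and 9.36 and at 7.62, 7.17 and 7.10 (-2.33 ± 0.12, adjusted p = 1.74e-06). Smoc1, a calcium-binding matrix protein that modulates BMPs, was at 6.97, 6.50 and 7.42 and at 4.87, 4.85 and 4.91 (-2.09 ± 0.15, adjusted p = 1.39e-05). Nppc, the gene of C-type natriuretic peptide, was lower at -1.89 ± 0.12 and Angptl1, a secreted angiopoietin-like protein, at -1.05 ± 0.13.

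On the list of reticular matrix genes 8 of 19 were lower (42.1% against 6.35% over all genes), 1 was higher and 10 did not pass, with a median of -0.12. The higher gene was Ptx3, which thus moved against its list. Comp (4.94 and 4.95) and Fmod (8.08 and 8.32), matrix genes of tendon and dermis, did not pass. The count of higher genes was 2 without animal 3 or its Dlk1+ Sca1+ array. Thbs4 is on the list and was already known to differ when the list was written, so its count is no independent evidence of a direction.

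Most genes on the list of papillary fibroblasts were lower in Dlk1+ Sca1+ than in reticular cells, although neither population is papillary. Of 23 measured genes 18 were lower (78.3% against 6.35% over all genes), 3 were higher (13% against 6.14%) and 2 did not pass. The median was -1.03. The list was written with earlier results of these data known, so its count is no independent evidence of a direction. Trps1, a GATA-type transcription factor of hair follicle and cartilage, was at 9.67, 9.32 and 9.79 in reticular and at 6.84, 6.54 and 7.08 in Dlk1+ Sca1+ cells. Its 3 paired differences were almost equal, at -2.77 ± 0.09 (adjusted p = 2.28e-07), and all 4 of its probe sets were called. Entpd1, the ectonucleotidase CD39, was at 7.57, 7.85 and 7.44 and at 5.44, 5.65 and 5.51 (-2.09 ± 0.13, adjusted p = 5.56e-06). Nkd2 and Apcdd1, both restrainers of Wnt signalling, were lower at -1.91 ± 0.11 and -1.86 ± 0.16. The 3 higher members were the axon guidance gene Sema3a (0.59), the membrane mucin gene Pdpn (0.49) and the transcription factor gene Twist2 (0.22), which lost their calls in 8, 1 and 12 of the 17 other fits. The count of higher members was 0 without animal 1 and 1 without animal 2, and it was 1 without any 1 of the 6 arrays other than the reticular array of animal 3.

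Of 21 genes of the hair follicle's dermal papilla and condensate, 9 were lower (42.9%) and 3 higher (14.3%), with a median of -0.21. The shares over all genes were 6.35% and 6.14%. Prom1, the surface glycoprotein CD133, was at 7.66, 7.66 and 8.05 in reticular cells and at 4.49, 5.53 and 4.62 in Dlk1+ Sca1+ cells (-2.91 ± 0.22, adjusted p = 2.16e-05). Sox2, a defining factor of the papilla, was at 3.79 and 3.80, so low in both populations that little can be read from it. Sox18, a factor of papilla and endothelium, was lower at -1.71 ± 0.19 (adjusted p = 0.000247) and Crabp1, a retinoic-acid-binding protein, at -1.72 ± 0.23. The 3 higher members were Hhip, a hedgehog-binding protein, at 1.42 ± 0.09, the leptin receptor gene Lepr at 0.72 ± 0.10, and Fgf10. The plot of called members by list places these lists beside the others.

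**Figure D4:**
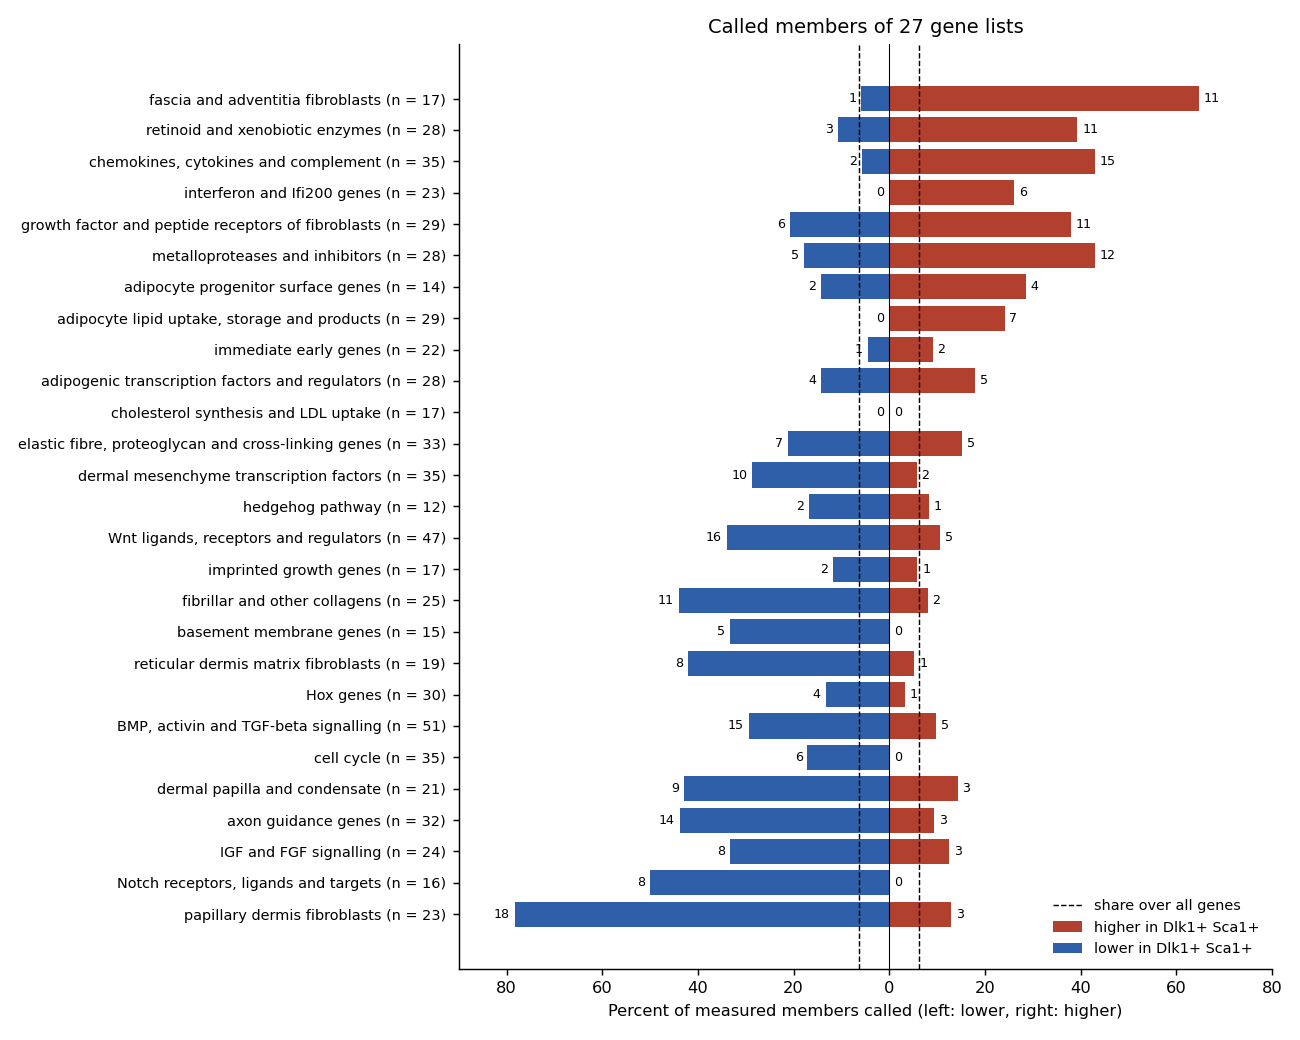
Percent of the measured members of 27 gene lists called lower (left) or higher (right) in Dlk1+ Sca1+ cells, with the number of genes beside each bar and lists ordered by their median difference. Dashed lines mark the share over all genes, 6.35% lower and 6.14% higher. The papillary list with 18 of 23 lower and the fascia and adventitia list with 11 of 17 higher lie at the ends. The lists were written with earlier results of these data known.

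Wnt signalling runs from secreted ligands through Frizzled and LRP receptors, with R-spondins that act through Lgr receptors as amplifiers. Of 47 measured Wnt genes 16 were lower (34%) and 5 higher (10.6%), against 6.35% and 6.14% over all genes. The median was -0.11, and the counts by role are given in turn. Among 11 ligands 1 was lower and 1 higher. Wnt5a, the main non-canonical ligand, was at 10.12, 8.94 and 9.49 in reticular and at 7.60, 7.14 and 7.08 in Dlk1+ Sca1+ cells (-2.24 ± 0.20, adjusted p = 5.11e-05), and Wnt2 was higher by 0.61 ± 0.08 (adjusted p = 0.000824). Of 15 receptors and co-receptors 4 were higher and 2 lower. Fzd4 was higher by 0.95 ± 0.11 (adjusted p = 0.000233) and Fzd1 by 0.84 ± 0.09 (adjusted p = 0.000266). The R-spondin receptors Lgr5 (0.88 ± 0.13) and Lgr4 (0.89 ± 0.15) were higher too, though the adjusted p was 0.0528 for Lgr5 without animal 3 and 0.0539 for Lgr4 without animal 2.

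Among 15 secreted or membrane modulators of Wnt, 8 were lower and none was higher, with a median of -0.56. Rspo3, an R-spondin, was at 6.93, 6.67 and 7.25 in reticular cells and at 5.35, 5.45 and 5.16 in Dlk1+ Sca1+ cells (-1.63 ± 0.13, adjusted p = 3.49e-05). So the R-spondin receptors were higher where this ligand was lower. Of 6 nuclear factors, targets and feedback genes 5 were lower, with a median of -1.05. Lef1, a nuclear partner of beta-catenin and itself a target, was at 6.92, 6.32 and 6.67 and at 4.55, 4.92 and 5.06 (-1.79 ± 0.24, adjusted p = 0.000907). The feedback gene Nkd2 was at 10.11, 10.08 and 10.35 and at 8.23, 8.50 and 8.07. Both inhibitors and targets of the pathway were thus among the lower genes, and Nkd2, Apcdd1, Rspo3 and Lef1 are on the papillary list as well.

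The BMP, activin and TGF-beta family consists of secreted dimeric ligands, paired receptor kinases and many extracellular binding proteins. Of 51 measured genes 15 were lower (29.4%) and 5 higher (9.8%), against 6.35% and 6.14% over all genes. The median was -0.16, and 7 of the 12 ligands were lower. Inhba, the subunit of activin A, was at 8.65, 8.09 and 9.34 in reticular cells and at 5.93, 6.08 and 6.10 in Dlk1+ Sca1+ cells (-2.66 ± 0.24, 6.31-fold lower, adjusted p = 6.66e-05). It varied among reticular arrays and was even among Dlk1+ Sca1+ arrays, and 1 of its 2 probe sets was called. Bmp4 was lower at -1.36 ± 0.20 (adjusted p = 0.00134), from 8.77, 8.51 and 9.18 to 7.61, 7.64 and 7.14. Bmp7 (-1.73 ± 0.35), Bmp5 (-1.25 ± 0.19) and Bmp2 (-1.02 ± 0.26) were called lower, but lost the call in 2, 1 and 6 of the 17 other fits. Bmp6 was the ligand that was higher, by 0.57 ± 0.09 (adjusted p = 0.00173).

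Among 16 extracellular modulators of this family 2 were higher and 4 lower. Beside Bmper, the higher gene was Chrdl1, a chordin-like BMP antagonist, at 7.43, 7.51 and 7.18 in reticular and at 8.99, 8.70 and 8.92 in Dlk1+ Sca1+ cells (1.50 ± 0.13, adjusted p = 5.11e-05). All 4 probe sets of Chrdl1 were called. Of 12 receptors 2 were higher and 1 lower, and the higher ones, Acvr1b (0.65) and Acvr1c (0.21), lost the call in 7 and 12 of the 17 other fits. Of 11 signal transducers, targets and feedback genes none was higher and 3 were lower. Over the 51 genes, 7 were lower without animal 2 or animal 3, and 3 were higher without animal 3, without the Dlk1+ Sca1+ array of animal 1 or 3, without the reticular array of animal 1, or without the block.

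Notch receptors are cleaved upon contact with ligands on a neighbouring cell, and the freed part binds the DNA-binding protein RBPJ at genes such as those of the Hes and Hey repressors. Of 16 measured genes 8 were lower (50% against 6.35% over all genes) and none was higher (against 6.14%), with a median of -0.35. Among 4 receptors Notch1 was lower at -1.32 ± 0.14 (adjusted p = 0.000211) and Notch3 at -0.95 ± 0.12 (adjusted p = 0.00052). Of 6 targets 4 were lower. Hey1 was at 9.19, 9.07 and 9.46 in reticular and at 7.43, 7.67 and 7.49 in Dlk1+ Sca1+ cells (-1.71 ± 0.11, adjusted p = 7.32e-06). Hey2 was at 5.92, 5.93 and 6.06 and at 4.72, 4.59 and 4.67 (-1.31 ± 0.06, adjusted p = 1.32e-06), and Heyl was lower at -0.79 ± 0.10 (adjusted p = 0.000445). The values of these 3 did not overlap between populations, as for 1001 of all 1085 lower genes. Hes1 did not pass (9.15 and 9.13), nor did the ligand gene Jag1 (-0.37, adjusted p = 0.0983). Without animal 3, 5 genes were lower. Notch3 and Heyl are also genes of pericytes and smooth muscle. Of 10 markers of those cells 3 were lower (30% against 6.35% over all genes), Notch3 itself, Mcam and Acta2. Mcam and Acta2 lost the call in 7 and 6 of the 17 other fits. The summed linear level of the 10, Notch3 included, was 2686 to 3968 in reticular and 1741 to 2559 in Dlk1+ Sca1+ arrays, without overlap. The part of these cells in the result was not tested. Without animal 3, either of its Dlk1+ arrays or the reticular array of animal 2, 1 of these markers was lower. The pericyte gene Rgs5 (-0.92, adjusted p = 0.439) and the smooth muscle gene Myh11 (-1.30, adjusted p = 0.11) did not pass.

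The promoters of Hey2 and Hes5 are shown because both genes fell and both windows hold a sequence that RBPJ binds. Hes5 (-0.33, adjusted p = 0.0243) was singled out for its promoter after its values were seen, and it lost the call in 8 of 17 fits. Each sequence runs 5′ to 3′ on the gene's strand from 250 bases before the start site to 50 after, from RefSeq on GRCm38.p6, and capitals mark GTGGGAA on either strand. Hey2 lies on the minus strand at chr10:30842734-30843033 and Hes5 on the plus strand at chr4:154960673-154960972.
Hey2: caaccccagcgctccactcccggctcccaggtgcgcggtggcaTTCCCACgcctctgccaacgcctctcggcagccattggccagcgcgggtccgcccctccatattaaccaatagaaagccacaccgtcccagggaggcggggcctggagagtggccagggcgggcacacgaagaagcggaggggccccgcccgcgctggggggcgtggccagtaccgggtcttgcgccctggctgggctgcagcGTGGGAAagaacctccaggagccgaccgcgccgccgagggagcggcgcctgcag
Hes5: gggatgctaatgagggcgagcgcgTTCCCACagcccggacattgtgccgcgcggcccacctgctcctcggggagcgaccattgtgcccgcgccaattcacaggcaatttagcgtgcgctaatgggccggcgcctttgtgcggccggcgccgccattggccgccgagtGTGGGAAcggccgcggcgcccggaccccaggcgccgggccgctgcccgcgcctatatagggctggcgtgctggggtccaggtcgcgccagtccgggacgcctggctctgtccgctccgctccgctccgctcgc
Counted with the start site as 0, matches began at -207 and -4 in Hey2 and at -226 and -83 in Hes5, each pair with 1 match per strand. Of 32851 promoters of this length 6.38% hold the motif. Of the 16 Notch genes 12 had a promoter in the table and 3 of these held it. All 3, Hey2, Hes5 and Lfng, were among the 6 of the 12 that were lower, and Lfng lost the call in 5 of 17 fits. A match describes letters in this window and is no measured binding site.

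**Figure D5:**
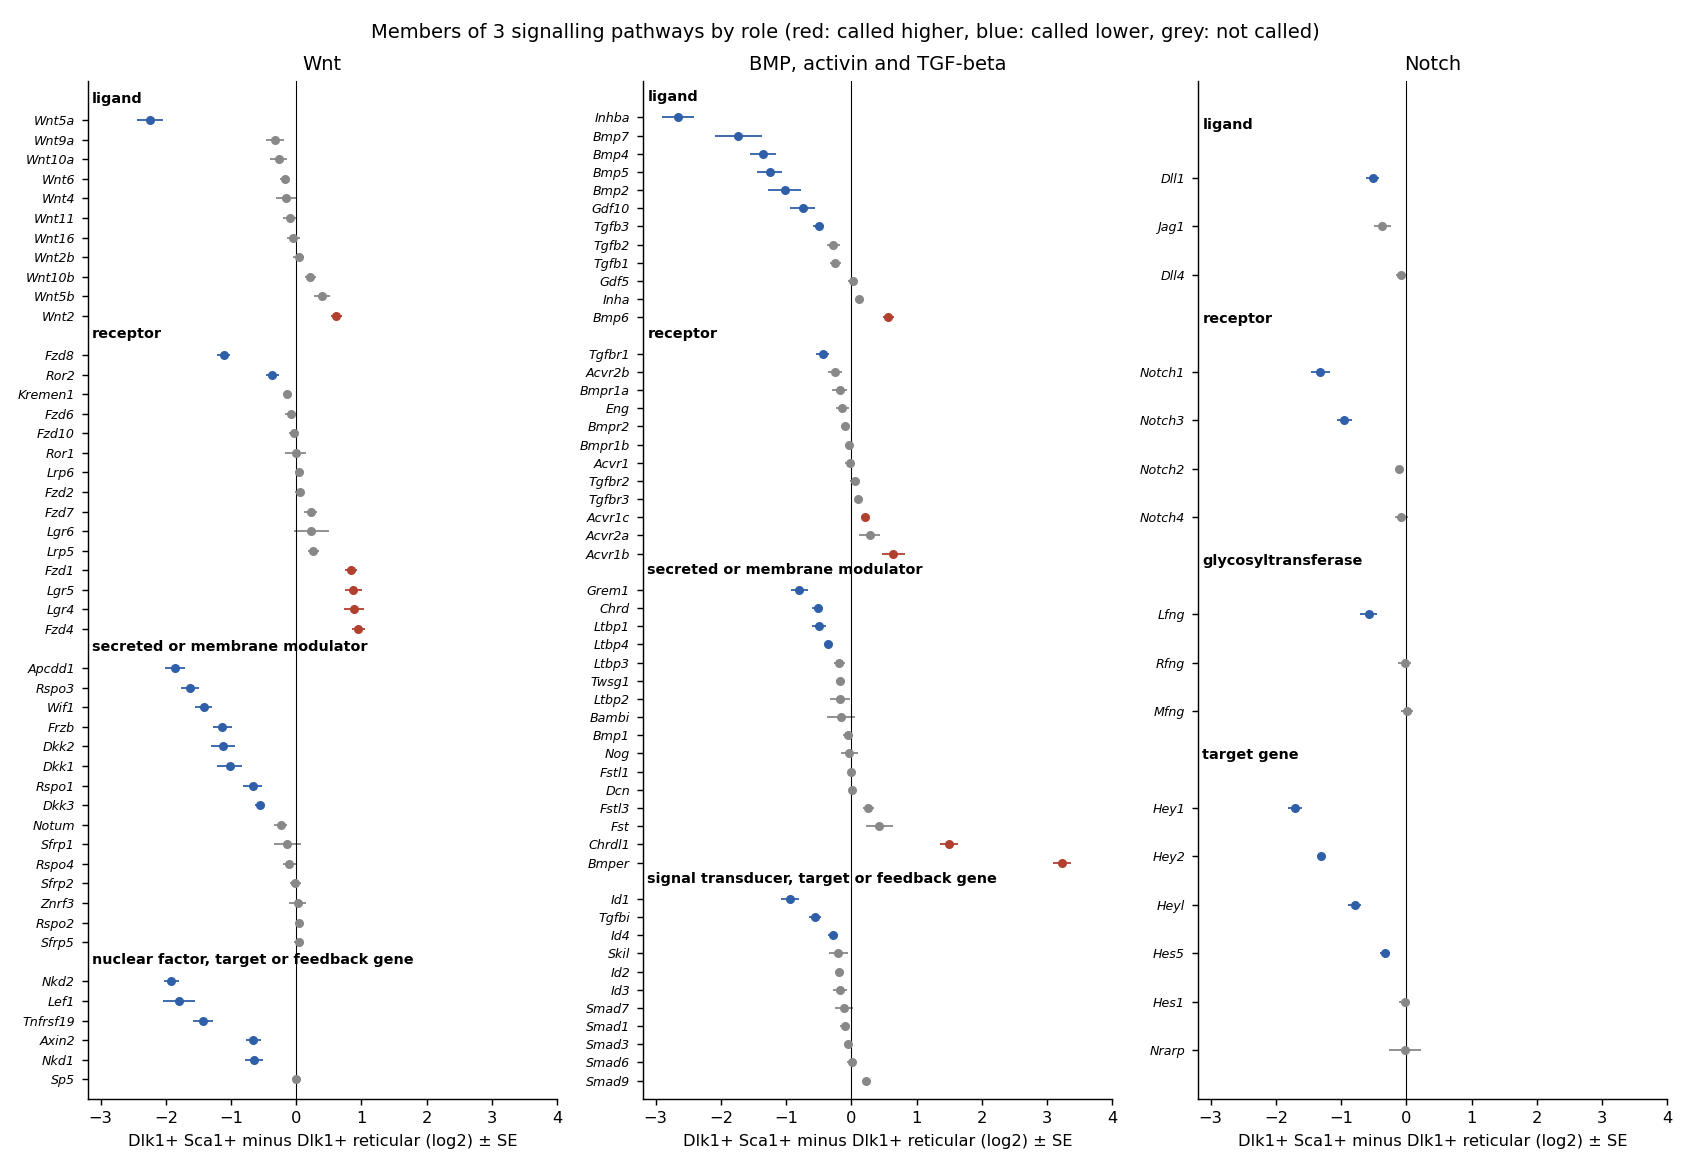
Differences between Dlk1+ Sca1+ and Dlk1+ reticular cells (log2 with SE, horizontal axis) for each measured member of the Wnt, BMP, activin and TGF-beta, and Notch pathways, grouped by role. Red points were called higher, blue points lower and grey points not called. Blue points gather among Wnt modulators and targets (8 of 15 and 5 of 6), BMP family ligands (7 of 12) and Notch targets (4 of 6), and red points among Wnt receptors (4 of 15).

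Fibroblast growth factors signal through receptor tyrosine kinases and switch on feedback inhibitors of the Sprouty family. Of 24 measured IGF and FGF genes 8 were lower (33.3%) and 3 higher (12.5%), against 6.35% and 6.14% over all genes. The median was -0.25. Fgf23, better known as a hormone of phosphate balance, was at 4.07, 4.77 and 4.39 in reticular and at 5.42, 5.82 and 5.68 in Dlk1+ Sca1+ cells (1.23 ± 0.12, adjusted p = 9.3e-05). These values are low on the array's scale, where RMA understates a difference. Fgfr2, the receptor for Fgf10, was higher by 0.77 ± 0.08 (adjusted p = 0.000181), and Fgf10 was the other higher gene. Fgfr4 was lower at -1.38 ± 0.16 (adjusted p = 0.000292), and the feedback genes Spry4 and Spry1 were lower at -0.82 ± 0.11 and -0.57 ± 0.08. Etv5 (-0.50), a transcription factor induced by FGF, and Fgf18 (-0.89) lost their calls in 1 and 4 of the 17 other fits. The growth factor Igf2 was at 12.90 and 12.71 (adjusted p = 0.0729). Without animal 2, animal 3 or the Dlk1+ Sca1+ array of animal 3, 4, 5 and 4 genes were lower.

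The list of receptors for growth factors, prostaglandins and peptides also holds genes of ligands. Of its 29 measured genes 11 were higher (37.9% against 6.14% over all genes), 6 were lower (20.7% against 6.35%) and 12 did not pass. Met, the receptor of hepatocyte growth factor, was at 6.85, 6.66 and 6.45 in reticular cells and at 8.15, 7.61 and 8.37 in Dlk1+ Sca1+ cells (1.39 ± 0.21, adjusted p = 0.00158). Its ligand gene Hgf was called lower (-0.56, adjusted p = 0.046) but lost the call in 11 of 17 fits. Tek, an angiopoietin receptor that is also an endothelial marker, was at 6.99, 6.87 and 6.74 and at 8.11, 8.05 and 8.22 (1.26 ± 0.11, adjusted p = 5.08e-05). The other endothelial markers called were Sox18, Erg and Kdr, all lower, and the last 2 lost the call in 7 and 10 fits. Ptgfr, a prostaglandin receptor, was higher by 0.92 ± 0.08 and the neurotrophin receptor gene Ntrk3 by 0.80 ± 0.08. Gfra1, a GDNF co-receptor, was lower at -0.91 ± 0.13, and so were the growth factor genes Pdgfc (-0.75 ± 0.07) and Angpt2 (-0.72 ± 0.09). Without animal 3 there were 7 higher genes and without animal 2 there were 3 lower genes.

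The hedgehog list gave 1 higher gene, Hhip, of 12 (8.33%) and 2 lower genes (16.7%), against 6.14% and 6.35% over all genes. Hhip was at 9.28, 9.23 and 9.34 and at 10.80, 10.61 and 10.69, and all 4 of its probe sets were called (adjusted p = 5.35e-06). Hhip is a target as well as an inhibitor of the pathway, and the target genes Gli1 (0.21, adjusted p = 0.437) and Ptch1 (-0.13, adjusted p = 0.244) did not pass. Gas1 (-0.44) and Boc (-0.25), surface proteins that bind the ligand, were called lower and lost the call in 1 and 14 of the 17 other fits. The count of lower genes was 0 without animal 2 and 1 in each other fit without an animal or an array.

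Of 35 chemokine, cytokine and complement genes, 15 were higher (42.9%) and 2 lower (5.71%), against 6.14% and 6.35% over all genes. The median was 0.30. Ccl19, a ligand of the lymphocyte receptor CCR7, was at 7.30, 7.29 and 7.52 in reticular and at 8.93, 9.31 and 9.05 in Dlk1+ Sca1+ cells (1.73 ± 0.10, 3.31-fold, adjusted p = 2.61e-06). Ccl7, which attracts monocytes, was at 8.57, 8.96 and 8.60 and at 10.03, 9.98 and 10.10 (1.33 ± 0.10, adjusted p = 2.04e-05). Cxcl12, the stromal ligand of CXCR4, was at 10.28, 10.17 and 10.15 and at 11.14, 11.05 and 11.37 (0.99 ± 0.08, adjusted p = 3.18e-05). None of these overlapped, as for 981 of all 1050 higher genes. The complement protease gene C1ra was higher by 1.29 ± 0.13 (adjusted p = 0.000116), and C4b by 0.79 ± 0.17, a call lost in 2 of 17 fits. The lower genes were Cxcl9 (-0.94) and the alarmin gene Il33 (-0.40), which lost the call in 8 and 6 fits. Without animal 3 or its reticular array 9 genes were higher. The lower genes numbered 0 without animal 2 or its Dlk1+ Sca1+ array, and 1 without animal 3 or any other 1 array. None of 14 immune cell markers was called, and their summed linear level was 742 to 830 in reticular and 825 to 872 in Dlk1+ Sca1+ arrays.

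Of 23 interferon-responsive genes, 6 were higher (26.1% against 6.14% over all genes) and none lower (against 6.35%), with a median of 0.25. The 3 with the largest differences belong to the Ifi200 family of interferon-induced proteins, several of which bind DNA. Ifi204 was at 5.58, 5.93 and 5.15 in reticular cells and at 8.06, 7.81 and 8.15 in Dlk1+ Sca1+ cells (2.45 ± 0.27, 5.48-fold, adjusted p = 0.000235). Ifi203 was at 6.06, 6.56 and 6.52 and at 8.21, 8.13 and 8.21 (1.80 ± 0.10, adjusted p = 2.61e-06). Ifi205 was at 5.71, 5.86 and 5.69 and at 7.50, 7.02 and 7.35 (1.54 ± 0.16, adjusted p = 0.000139). The 3 genes belong to 1 family, and whether their probes share signal was not tested. Ifi202b (0.47, adjusted p = 0.711) and Ifi209 (0.12, adjusted p = 0.551) of the same family did not pass. Outside the family Irgm1 (0.65) and Ifit1 (0.66), both induced by interferon, were called higher and lost the call in 2 and 7 fits. With only the 6 Dlk1+ arrays in the fit, 10 genes were higher and 1 lower.

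The promoters of Ifi203 and Ifi205 are shown because both hold the core of the interferon-stimulated response element. Capitals mark TTTC, any 2 bases and TTTC, on either strand, and both windows lie on the minus strand on GRCm38.p6, Ifi203 at chr1:173942443-173942742 and Ifi205 at chr1:174031706-174032005.
Ifi203: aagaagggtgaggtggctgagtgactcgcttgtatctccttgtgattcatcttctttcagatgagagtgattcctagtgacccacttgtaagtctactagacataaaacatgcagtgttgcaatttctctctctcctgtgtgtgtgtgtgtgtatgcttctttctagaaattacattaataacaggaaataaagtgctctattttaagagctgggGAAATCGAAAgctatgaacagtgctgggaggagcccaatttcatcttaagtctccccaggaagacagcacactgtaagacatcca
Ifi205: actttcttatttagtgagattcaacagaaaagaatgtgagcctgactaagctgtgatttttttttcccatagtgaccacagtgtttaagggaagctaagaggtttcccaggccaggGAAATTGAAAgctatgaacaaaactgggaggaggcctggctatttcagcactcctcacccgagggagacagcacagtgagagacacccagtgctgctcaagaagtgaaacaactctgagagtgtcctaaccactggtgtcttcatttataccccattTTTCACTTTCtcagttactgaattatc
Matches began at -35 in Ifi203 and at -134 and 23 in Ifi205, counted as above. The motif is in 3.44% of the 32851 promoters. It was in 13 of the 19 interferon genes that had a promoter in the table and in all 5 of those that were higher, but also in 8 that did not pass, such as Ifit3 (0.30) and Rsad2 (0.19).

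Of 25 measured collagen genes 11 were lower (44% against 6.35% over all genes), 2 higher (8% against 6.14%) and 12 did not pass. The main fibril collagens of the dermis, Col1a1 (0.01, adjusted p = 0.945) and Col3a1 (-0.01, adjusted p = 0.928), did not pass, but both are near the highest value of the arrays, so their small differences do not show that these genes were equal. Col7a1, the anchoring fibril collagen beneath the epidermis, was at 9.68, 9.38 and 9.86 in reticular and at 7.87, 7.98 and 8.26 in Dlk1+ Sca1+ cells (-1.60 ± 0.13, adjusted p = 2.49e-05). Col11a1 (-1.46 ± 0.18), Col24a1 (-1.15 ± 0.11) and Col8a1 (-1.13 ± 0.06) were lower as well. The higher genes were Col15a1 (0.83 ± 0.14) and Col18a1 (0.40 ± 0.09), the pair of basement-membrane-associated collagens that release endostatin-like fragments, and they lost the call in 1 and 6 fits. The count of higher genes was 0 without animal 2, and 1 without animal 3, the reticular array of animal 1, or the Dlk1+ Sca1+ array of animal 2 or 3. Among 15 basement membrane genes 5 were lower (33.3% against 6.35% over all genes) and none higher. Col4a5 was lower at -1.55 ± 0.16 (adjusted p = 0.000128) and Hspg2, the gene of perlecan, at -0.45 ± 0.06 (adjusted p = 0.00112). Agrn (-1.15), Col4a6 (-0.51) and Lama2 (-0.32) lost the call in 2, 7 and 6 fits. Without animals 2 and 3, 3 and 2 genes were lower, and 3 without the reticular array of animal 1 or the Dlk1+ Sca1+ array of animal 3.

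Elastic fibre, proteoglycan and cross-linking genes were mixed, with 5 of 33 higher (15.2%) and 7 lower (21.2%). The shares over all genes were 6.14% and 6.35%, and the list's median was 0.02. Elastin (Eln, 12.74 and 12.71) and the cross-linking enzyme Lox (11.72 and 11.91) did not pass. Beside Efemp1, the small leucine-rich proteoglycan gene Prelp was higher, at 9.40, 9.53 and 9.18 in reticular and at 10.54, 10.38 and 10.47 in Dlk1+ Sca1+ cells (1.09 ± 0.16, adjusted p = 0.00132). Kera, the gene of keratocan, was lower at -1.46 ± 0.20 and Plod2, a collagen lysyl hydroxylase, at -0.85 ± 0.07 (adjusted p = 4.95e-05). Loxl4 (0.61), Fbln5 (0.40), Plod3 (0.32), Emilin1 (-0.64), Hapln1 (-0.61) and Loxl3 (-0.50) were called and lost the call in 5, 5, 2, 5, 2 and 7 of the 17 other fits. Without animal 2 there were 2 higher and 2 lower genes, and 3 were higher without animal 3, the reticular array of animal 2 or the Dlk1+ Sca1+ array of animal 3. Without the reticular array of animal 1 or 2, 4 and 3 were lower, and 3 without the Dlk1+ Sca1+ array of animal 2 or 3.

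Of 28 genes that handle retinoids, steroids and foreign compounds, 11 were higher (39.3%) and 3 lower (10.7%). The shares over all genes were 6.14% and 6.35%, and the list's median was 0.32. Akr1c14, a hydroxysteroid dehydrogenase, was at 4.93, 5.22 and 4.82 in reticular and at 7.41, 7.34 and 7.20 in Dlk1+ Sca1+ cells (2.33 ± 0.15, 5.02-fold, adjusted p = 8.44e-06). Its relative Akr1cl, which is not on the list, was at 4.74, 4.86 and 4.93 and at 6.85, 6.89 and 7.0 (2.07 ± 0.08, adjusted p = 7.21e-07), and the similarity of aldo-keto reductases may let their probes share signal. Rbp4, the carrier of retinol, was at 9.28, 9.74 and 9.46 and at 11.31, 11.24 and 11.31 (1.79 ± 0.11, adjusted p = 6.35e-06). Cyp1b1, a cytochrome P450 that oxidises oestrogens and retinoids, was higher by 1.76 ± 0.11 (adjusted p = 5.56e-06). Ugt1a6a (1.60 ± 0.09) and Ugt1a9 (1.47 ± 0.13), which attach glucuronic acid, share exons and are not independent.

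The lower genes of this list act in the supply and use of retinoic acid within cells. Crabp1 was at 9.40, 8.79 and 9.51 in reticular and at 7.54, 7.72 and 7.27 in Dlk1+ Sca1+ cells (adjusted p = 0.000827). Rdh10, which makes retinaldehyde, was at 9.08, 9.01 and 9.12 and at 8.27, 8.17 and 8.26 (-0.84 ± 0.06, adjusted p = 1.37e-05). Cyp26b1, which degrades retinoic acid, was lower at -0.61 ± 0.11 and had an adjusted p of 0.0563 without animal 2. With the mean of all probe sets of a gene, or the probe set with the largest variance, 5 genes of the list were lower.

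Of 35 cell cycle genes 6 were lower (17.1% against 6.35% over all genes), none higher and 29 did not pass. The median was -0.18. The members named were Cenpf (-0.73), Aurkb (-0.45), Cdk1 (-0.44), Nusap1 (-0.44) and Ccna2 (-0.35), genes of the spindle, kinetochore and cell cycle kinases. They lost the call in 1, 3, 2, 6 and 11 of the 17 other fits, and the proliferation marker Mki67 did not pass (-0.44, adjusted p = 0.053). Without animal 3 none was lower, and 3 were lower without animal 1, animal 2 or either Dlk1+ array of animal 1. With only the 6 Dlk1+ arrays in the fit 10 were lower. None of 17 genes of cholesterol synthesis was called. Of 22 immediate early genes, which respond to cell handling, 2 were higher (9.09%) and 1 lower (4.55%). These shares were near the 6.14% and 6.35% over all genes, and Fos was at 12.54 and 12.50. Fosl1 was higher by 0.75 ± 0.11 and Nr4a2 lower at -0.53 ± 0.06, and the count of higher genes ran from 1 to 5 over the other fits. Among 17 imprinted genes Magel2 was lower at -1.03 ± 0.14 (adjusted p = 0.000944), while Ndn (-0.26) and Usp29 (0.30) lost the call in 11 and 10 fits, and the count of lower genes ran from 1 to 7.

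Of 15 skeletal muscle markers 5 were lower in Dlk1+ Sca1+ cells (33.3% against 6.35% over all genes). None was higher and 10 did not pass, with a median of -0.15. Acta1, skeletal actin, was at 8.57, 8.20 and 7.71 in reticular and at 7.06, 6.71 and 6.58 in Dlk1+ Sca1+ cells (-1.38 ± 0.13, adjusted p = 8.8e-05), and Tnnc2, a troponin, was lower at -1.20 ± 0.16. The list's summed linear level was 1494 to 1954 in reticular and 1077 to 1260 in Dlk1+ Sca1+ arrays, without overlap. The muscle regulators Myod1 (6.63 and 6.63) and Myog (5.23 and 5.10) did not pass. Without animal 2, without the reticular array of animal 1 or without the Dlk1+ Sca1+ array of animal 2 there were 2 lower genes, and 3 without the Dlk1+ Sca1+ array of animal 3. None of 11 keratinocyte markers was called, but all had a higher mean in Dlk1+ Sca1+ cells, by 0.06 to 1.35, with a median of 0.38. Their summed level varied widely, at 5198, 1262 and 1531 in reticular and 3736, 5489 and 2047 in Dlk1+ Sca1+ cells. None of 5 adipocyte, 7 mast cell or 4 erythroid markers was called, and of 9 melanocyte and Schwann markers Mitf was higher (0.56, adjusted p = 0.00223). The part of any of these cells in the differences above was not tested.

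The Dlk1- Sca1+ cells of the same animals were sorted as lacking Dlk1 at the surface. The Dlk1 transcript was nonetheless at 11.18, 11.45 and 11.54 there, lower than in Dlk1+ Sca1+ cells (-1.47 ± 0.08, adjusted p = 5.2e-06) and above the mean of 9.97 in papillary cells. The comparison of Dlk1- Sca1+ with Dlk1+ Sca1+ cells shares the Dlk1+ Sca1+ arrays with the one above, so its values are given side by side only, and 11.1% of all genes were called in it, 5.35% higher and 5.75% lower in Dlk1- Sca1+ cells. Its calls were not refitted without single arrays. Of the 15 leading higher genes, 3 were higher again in Dlk1- Sca1+ than in Dlk1+ Sca1+ cells, 5 were lower and 7 did not pass. Pparg was at 10.37, 10.37 and 10.46 in Dlk1- Sca1+ cells, a further 0.58 ± 0.09 (adjusted p = 0.00229), and Cd36 was a further 0.71 ± 0.14 higher (adjusted p = 0.00893). Bmper (-0.13, adjusted p = 0.651), Serpina3n (-0.18, adjusted p = 0.492), Fabp4 (0.19, adjusted p = 0.786) and Ly6c1 (-0.39, adjusted p = 0.0729) did not pass. Of the 5 Ifi200 genes, Ifi203 was lower there, at 6.25, 6.29 and 6.49 (-1.84 ± 0.10, adjusted p = 3.45e-06), within the range of the reticular values. Ifi205 (-1.74, adjusted p = 7.91e-05) and Ifi204 (-1.38, adjusted p = 0.00844) were lower too, while Ifi202b (0.58, adjusted p = 0.618) and Ifi209 (-0.06, adjusted p = 0.784) did not pass. Akr1c14 (-1.60) and Fgf23 (-1.30) were lower as well. So Ifi203, Ifi204, Ifi205, Akr1c14 and Fgf23 were higher in Dlk1+ Sca1+ than in both reticular and Dlk1- Sca1+ cells. Their levels in papillary cells are not compared here.

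Of the 15 leading lower genes, 7 were higher in Dlk1- Sca1+ than in Dlk1+ Sca1+ cells, 2 were lower and 6 did not pass. The 2 that went on falling were Thbs4, at 6.07, 6.28 and 5.66 (-2.57 ± 0.15, adjusted p = 6.78e-06), and Mgp (-0.72 ± 0.12, adjusted p = 0.0034). Prom1 was higher by 2.05 ± 0.22 (adjusted p = 0.000258), Rarres1 by 1.91 ± 0.16 (adjusted p = 5.26e-05) and Trps1 by 1.50 ± 0.09 (adjusted p = 6.03e-06), each at a mean between those of Dlk1+ Sca1+ and reticular cells. Hey1 was at 8.72, 8.86 and 8.57, higher by 1.19 ± 0.11 (adjusted p = 0.000106), and Notch1 was higher by 0.70 ± 0.14 (adjusted p = 0.0104). Itga8 (-0.15), Wnt5a (0.18) and Inhba (0.54) did not pass.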

How the data were processed

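Transcript levels of sorted mouse dermal fibroblasts were measured on Affymetrix arrays, 3 per population. The authors deposited log2 expression values made by RMA (background correction, quantile normalization and summary of the probes of a probe set) in affy, per the submitters' processing notes. For software versions and the genome build, these are not given in the sources used here. Both RMA and the 21 cycles of amplification can shrink differences of dim or very abundant transcripts. The table held 45141 probe sets. The 104 array controls were left out, 28898 had 1 gene symbol, 551 had several, and 15588 (34.61%) are unnamed here. Entrez numbers of 28689 matched RefSeq, and 0 symbols changed. A gene was represented by its probe set of highest average level across the 12 arrays, which gave 17097 genes, with no filter on dim ones.

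All 12 arrays were fitted in limma 3.58.1 (R 4.3.3) with population and animal as fixed terms, 6 residual and 4.263 prior degrees of freedom, and Benjamini-Hochberg adjustment over all genes. The labels number 3 biological replicates alike in each population, and the submitters' design text describes them as 3 littermates. Deviations from population means correlated across genes between the reticular and Dlk1+ Sca1+ arrays of animals 1, 2 and 3 at 0.427, 0.18 and 0.333, and over all 18 same-animal pairs at 0.086 to 0.432. On simulated data for this comparison the fit recovered 67.2% of differences of 0.5, 97% of 1 and 100% of 2. Fewer genes differed in the simulation than were called in the data. A difference is a log2 difference of means with limma's SE, and a fold is 2 to its power.

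Other fits left out the block, used only the 6 Dlk1+ arrays, centred arrays, repeated the quantile normalization, left out genes with a mean under 5, took other probe sets per gene, gave the prior variance a trend, or left out each animal or array in turn. Named genes are the sorting genes, the 15 called genes per direction with the largest difference and no overlap (clone and model names left out), up to 5 called members per list and direction, the 4 genes given for the comparison, the 3 most like Ly6c1, and defining list members that were not called. The genes and lists were chosen with earlier results of these data known, so no count or share of a list is independent evidence of a direction. With the animal as a block, p-values rest on how differences between the 4 populations vary among these 3 animals. As the labels name no separate litters or cultures, no spread between those is measured. Promoters were matched by symbol in a RefSeq table on GRCm38.p6. The Sca1 transcript is not reported here.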

Additional observations from a re-analysis of the deposited data

How the results depend on the processing

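The counts depended on the settings more than the named genes did. Against 1050 higher and 1085 lower genes, the fit with no replicate block, which ignores the pairing by animal, gave 694 and 747, so only the higher count moved by over 1.5 times. Of the 182 called named genes 160 kept their call without the block and 22 lost it. Asking for a difference of at least 1 as well left 94 and 143 genes. Leaving out an animal or an array gave 362 to 898 higher and 439 to 797 lower genes, the fewest higher without animal 3 and the fewest lower without animal 2. All other settings stayed within 1.5 times of both counts, from 893 to 1381 higher and 889 to 1164 lower. Of the 182 named genes 113 were called in all 17 other fits and 69 were not called in 1 or more of them, and none was reversed in any. Fits without an animal kept 128 to 155 of them and fits without 1 array 137 to 150. Of 98 named genes with more than 1 probe set 64 had all of them called the same way, and none had a probe set called the opposite way. The number of arrays limits the rest. On simulated data a difference of 0.5 was missed in part, so a gene that did not pass may still differ by that much. Where values vary widely it may differ by more, as Myh11 did not pass at -1.30.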

Other observations

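Metalloprotease genes and their inhibitors were called in many cases, with 12 of 28 higher (42.9%) and 5 lower (17.9%). The shares over all genes were 6.14% and 6.35%. Adamts18, a secreted metalloprotease, was at 6.47, 7.18 and 7.12 in reticular and at 8.19, 8.72 and 8.28 in Dlk1+ Sca1+ cells (1.47 ± 0.15, adjusted p = 0.000114). Mmp19, a matrix metalloprotease, was at 10.43, 10.82 and 10.49 and at 11.66, 11.75 and 11.62 (1.10 ± 0.09, adjusted p = 4.52e-05), and Adamts9 was higher by 0.98 ± 0.07 (adjusted p = 1.57e-05). These 3 did not overlap between populations, as for 981 of all 1050 higher genes. The membrane-bound Mmp16 was lower at -1.08 ± 0.10 (adjusted p = 7.08e-05) and the inhibitor gene Timp3 at -0.81 ± 0.12 (adjusted p = 0.00172). Mmp2 and Mmp14, which are abundant in fibroblasts generally, were at differences of 0.02 and -0.03 and did not pass. Without animals 1 and 3, 7 and 5 genes were higher. The lower genes numbered 2 without animal 2, animal 3 or the Dlk1+ Sca1+ array of either, and 3 without the reticular array of animal 2 or 3.

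Axon guidance genes, which fibroblasts also use for migration and cell contact, were lower in 14 of 32 measured genes (43.8%) and higher in 3 (9.38%). The shares over all genes were 6.35% and 6.14%. The netrin receptor gene Unc5b was at 9.55, 9.59 and 9.95 and at 8.24, 8.51 and 8.44 (-1.30 ± 0.14, adjusted p = 0.000241). The slit receptor gene Robo1 was lower at -1.16 ± 0.11 (adjusted p = 0.000104), Nrp2, a co-receptor of semaphorins and VEGF, at -0.93 ± 0.11 and Sema6d, a membrane semaphorin, at -0.83 ± 0.07. The ephrin receptor gene Epha4 was lower at -1.24 ± 0.20, with an adjusted p of 0.0742 without animal 3. The higher genes were all secreted class 3 semaphorins, Sema3a (0.59), Sema3c (0.33) and Sema3b (0.27), and they lost the call in 8, 9 and 13 of the 17 other fits. Without animals 2 and 3, 8 genes were lower in each case, and 9 without the Dlk1+ Sca1+ array of animal 3. The higher genes numbered 0 or 1 in each fit without an animal or an array.

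Of 35 transcription factors of the dermal mesenchyme 10 were lower (28.6% against 6.35% over all genes) and 2 higher (5.71% against 6.14%). Sox11, a factor of progenitor cells, was at 9.26, 9.30 and 9.33 and at 7.78, 8.00 and 7.90 (-1.40 ± 0.08, adjusted p = 4.91e-06). The homeobox gene Alx4 was lower at -1.04 ± 0.08 (adjusted p = 1.57e-05) and Tcf4, a bHLH factor, at -1.0 ± 0.08 (adjusted p = 3.43e-05). The higher genes were Lmo4 (0.28) and Twist2 (0.22), whose calls were lost in 11 and 12 fits, and without animals 2 and 3 there were 5 and 6 lower genes. Of 30 Hox genes 4 were lower (13.3% against 6.35% over all genes), 1 was higher (3.33% against 6.14%) and 25 did not pass. Hoxc10 was at 9.82, 9.95 and 10.38 and at 9.06, 9.17 and 9.77 (-0.72 ± 0.08, adjusted p = 0.000208), and its highest Dlk1+ Sca1+ value lay just below its lowest reticular value. The other called Hox genes, Hoxb5, Hoxc9, Hoxb2 and Hoxd8, lost the call in 3, 5, 8 and 8 fits. Without animals 2 and 3, 2 and 1 Hox genes were lower, and 2 without the Dlk1+ Sca1+ array of animal 3.

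Among the 15588 unnamed probe sets 9.1% were called, 442 higher and 976 lower, against 10.6% of all 45037 probe sets tested. They entered no gene count.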
